A study of Arabidopsis thaliana with 128 samples.

Results

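AOX1A (AT3G22370) and 5 other nuclear genes of the mitochondrial retrograde response were followed through 8 times after transcription was blocked with cordycepin in Arabidopsis thaliana seedlings. The other 5 were NDB2 (AT4G05020), UPOX (AT2G21640), OM66 (AT3G50930), ANAC017 (AT1G34190) and ANAC013 (AT1G32870). The 6 genes were chosen by their gene identifiers, with earlier results of these data known and the values behind that choice not recorded, from the 28775 genes of the deposited table. All 6 passed the filters on low values of the tests of level, of the change to 30 min and of the change from 60 to 240 min. UPOX was left out of the test of slopes, since its lowest genotype mean at 0 min was 1.56 RPM and that test asked for 2 RPM.

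Retrograde signalling carries information on the state of the mitochondria to the nucleus. In plants, a block in the respiratory chain or oxidative stress raises a set of nuclear transcripts, of which AOX1A is the best known. ANAC017 is a NAC transcription factor held in the endoplasmic reticulum membrane and released when mitochondria are disturbed. It and its relative ANAC013 bind a short promoter sequence called the mitochondrial dysfunction motif. The alternative oxidase AOX1A passes electrons from ubiquinol straight to oxygen, and the external NAD(P)H dehydrogenase NDB2 feeds electrons to ubiquinone from the cytosolic side. Neither enzyme pumps protons. OM66 is an AAA-type ATPase of the outer mitochondrial membrane, and UPOX is a mitochondrial protein named for its rise under oxidative stress. RefSeq lists OM66 as BCS1, ANAC013 as NAC13 and ANAC017 as NAC017, and pairs no symbol with UPOX.

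The study covered 4 genotypes at 8 times in 1 mM cordycepin, an adenosine analogue that ends RNA chains, with 4 biological replicates per group and 128 libraries in all. Early times were 0, 7.5, 15 and 30 min, and later ones 60, 120, 240 and 480 min. The genotype called vcs sov carried the vcs-7 allele and no SOV transgene. The genotype called vcs carried vcs-7 with a transgene of the Landsberg erecta allele of SOV, written SOV-L.er. The genotype called sov was the Col-0 accession itself, whose own SOV allele is the mutant one here. WT was Col-0 with SOV-L.er, so both genotypes with a working SOV owed it to a transgene, whose promoter is not given in the sources used here. VCS is the scaffold of the mRNA decapping complex, and SOV is a 3′ to 5′ exoribonuclease of the DIS3L2 family. Each RNA came from 50 to 60 whole seedlings, 5 d old and grown in constant light, and the labels record swapped tubes, put right by the submitters, for replicate 3 at 60 min of vcs sov and of vcs.

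The libraries held 11480085 to 37349698 reads in genes (median 21731264), so that 3 reads corresponded to 0.0803 to 0.261 RPM, the unit of the deposited table. Nuclear genes took 71.7 to 75.7% of these reads in vcs sov at 0 min, 61.8 to 64.5% in vcs, 50.4 to 52.5% in sov and 46.5 to 50.5% in WT. Levels are therefore given as nuclear RPM, in which the reads of a gene are scaled to the reads of nuclear genes alone, which is a share and not an amount per cell. VCS reads were lower in vcs than in WT by a log2 difference of -4.15 and in vcs sov than in sov by -3.34. SOV reads, which do not tell the alleles apart, were lower in sov than in WT (-2.30) and in vcs sov than in vcs (-1.72). They were higher in both genotypes with vcs-7, by 2.61 in vcs sov than in sov and by 2.03 in vcs than in WT. The vcs sov libraries averaged 248 nuclear RPM of SOV, above the 202 of WT, so the SOV level alone does not check the label sov in vcs sov. In the relabelled tubes at 60 min, SOV stood at 163 nuclear RPM in the vcs sov library and 494 in the vcs library, near the 179.9 to 252 of the other vcs sov replicates and the 508 to 579.5 of the other vcs replicates. At 0 min the summed level of the 3 shoot markers was 10218 to 13924 nuclear RPM in vcs sov, 23585 to 31597 in vcs, 23734 to 32369 in sov and 22395 to 28015 in WT. The sum of the 4 root markers was 4567 to 6068, 7548 to 9431, 6145 to 7080 and 6147 to 6874 nuclear RPM in the same order of genotypes. Most of the shoot sum is RBCS1A and most of the root sum PYK10, and single markers did not all follow the sums. In vcs against WT, PYK10 averaged 8575 and 6406 nuclear RPM, but COBL9 6.11 and 8.8, PIN2 13.8 and 15.0, and CAB2, which has near-identical copies, 2711 and 4256. IRT1, an iron transporter of the root surface, averaged 6.94 nuclear RPM in vcs sov and 102 nuclear RPM in sov. No marker averaged 0, and the part of these differences in the results below was not tested. In whole seedlings, fewer cells of a type and less RNA per cell cannot be told apart.

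The mitochondrial dysfunction motif was looked for in the 1000 bases before the start codon of each gene, since it is the sequence that these genes are known for. It was searched as CTTGNNNNNCAAG, which reads the same on both strands, and as CTTGNNNNNCACG, whose other strand reads CGTGNNNNNCAAG. Matches were found for 4 of the 6 genes, and are printed with 8 flanking bases on each side and the 13 bases of the match in capitals, all on the + strand, from the TAIR10.1 assembly of RefSeq.
AOX1A, match 1: atctagctCTTGGCGACCACGcaagtatc
AOX1A, match 2: tcttccatCTTGCTCTCCAAGaaaaatct
UPOX: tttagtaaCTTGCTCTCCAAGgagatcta
NDB2, match 1: acccggttCGTGATGATCAAGaggtttcc
NDB2, match 2: cgatctggCTTGGCCACCAAGattgtttg
ANAC017: acctctgtCGTGTCAGACAAGaatgttgg

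The AOX1A windows lie at chr3:7906510-7906538 and chr3:7906537-7906565, with the matches 372 to 360 and 345 to 333 bases before the start codon. The annotated AOX1A transcript starts 369 bases before the codon, so the first match spans that start and the second lies in the transcribed leader. The UPOX window lies at chr2:9254319-9254347, with its match 658 to 646 bases before the codon. The NDB2 windows lie at chr4:2571767-2571795 and chr4:2572340-2572368, with matches 977 to 965 and 404 to 392 bases before the codon. The ANAC017 window lies at chr1:12451287-12451315, with its match 434 to 422 bases before the codon. The 13 bases of the second AOX1A match and of the UPOX match were the same. No match was found in the window of OM66 or ANAC013. Of 26709 nuclear protein-coding genes, 1178 (4.41%) held a match in the same window and 0.247% held 2 or more. Several of these genes are known in the literature through this motif, so the count of 4 of 6 is a description.

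Before cordycepin, every one of the 6 transcripts had a higher level in vcs sov than in sov, and OM66, UPOX and NDB2 were also higher in vcs sov than in vcs. Between vcs and WT, the differences of ANAC017 and ANAC013 passed the test. The fitted difference there was below that between vcs sov and sov for all but ANAC017, at 1.63-fold and 1.61-fold. Between sov and WT none did. Tests at 0 min used limma on log2(nuclear RPM + 0.5) of the 16 libraries, with Benjamini-Hochberg adjustment over 20104 genes and a threshold of 0.05; the 4 values of a group are given from low to high.

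AOX1A, the alternative oxidase, had 61.4, 68.5, 86.0 and 90.0 nuclear RPM in vcs sov, 55.8, 56.6, 68.1 and 70.3 in vcs, 30.6, 37.1, 42.6 and 46.5 in sov, and 40.5, 41.3, 45.4 and 65.5 in WT. All vcs sov libraries lay above all sov libraries, while vcs and WT overlapped through 1 WT library. The level was 1.94-fold higher in vcs sov than in sov (log2 difference 0.95 ± 0.16 SE, adjusted p = 4.65e-05, limma). The difference between vcs and WT was 0.40 ± 0.16 on the log2 scale and did not pass (adjusted p = 0.0506, limma). Without replicate 3, which held the high WT value, it was 0.61 and passed (adjusted p = 0.00586, limma).

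NDB2, the external NAD(P)H dehydrogenase, had 66.2, 70.1, 86.4 and 86.6 nuclear RPM in vcs sov, 46.2, 50.6, 55.0 and 66.7 in vcs, 32, 39.1, 42.1 and 45.7 in sov, and 41.2, 41.8, 45.4 and 57.5 in WT. The vcs sov libraries lay above all sov libraries and overlapped vcs by the highest vcs value. NDB2 was 1.94-fold higher in vcs sov than in sov (log2 0.95 ± 0.14, adjusted p = 5.61e-06, limma) and 1.41-fold higher in vcs sov than in vcs (0.50 ± 0.14, adjusted p = 0.00479, limma).

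UPOX, the scarcer mitochondrial protein transcript, had 7.63, 9.77, 10.9 and 11.3 nuclear RPM in vcs sov, 3.67, 3.86, 4.66 and 4.75 in vcs, 1.81, 2.28, 4.08 and 5.45 in sov, and 2.22, 2.82, 3.6 and 3.97 in WT. The 4 vcs sov libraries stood above every other library, and the remaining genotypes overlapped, with sov the most spread. UPOX was 2.83-fold higher in vcs sov than in sov (log2 1.5 ± 0.24, adjusted p = 2.20e-05, limma) and 2.18-fold higher than in vcs (1.13 ± 0.24, adjusted p = 0.000713, limma).

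OM66, the outer-membrane ATPase, had 343, 397, 450.3 and 467 nuclear RPM in vcs sov, 125, 129.9, 132 and 226 in vcs, 81.9, 84.8, 101 and 128 in sov, and 97.5, 108, 115 and 123 in WT. Its vcs sov libraries stood above all others, and the vcs libraries lay above all WT libraries by a narrow gap. OM66 was 4.2-fold higher in vcs sov than in sov (log2 2.07 ± 0.17, adjusted p = 1.15e-08, limma) and 2.77-fold higher than in vcs (1.47 ± 0.17, adjusted p = 2.23e-06, limma). The difference of 0.43 ± 0.17 between vcs and WT did not pass (adjusted p = 0.0520, limma). It passed when the replicate number was added to the fit as a block, as given in the section on processing.

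ANAC017, the membrane-bound factor, had 105, 112, 113 and 115 nuclear RPM in vcs sov, 100.3, 107, 108 and 117 in vcs, 58.3, 65.7, 75.1 and 79.6 in sov, and 64.0, 64.2, 64.5 and 71.2 in WT. Both genotypes with vcs-7 lay above both without it, in every library. The fold was 1.61 between vcs sov and sov (log2 0.68 ± 0.09, adjusted p = 1.98e-06, limma) and 1.63 between vcs and WT (0.71 ± 0.09, adjusted p = 4.77e-06, limma). Between vcs sov and vcs the difference was 0.04 ± 0.09 (adjusted p = 0.699, limma).

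ANAC013, the other NAC factor, had 13.7, 15.7, 15.8 and 16.4 nuclear RPM in vcs sov, 8.39, 12.6, 13.6 and 13.8 in vcs, 5.88, 8.13, 11.4 and 12 in sov, and 6.78, 6.88, 7.14 and 10.4 in WT. The vcs sov libraries lay above all sov libraries, while vcs and WT overlapped. It was 1.67-fold higher in vcs sov than in sov (log2 0.74 ± 0.20, adjusted p = 0.00278, limma) and 1.51-fold higher in vcs than in WT (0.60 ± 0.20, adjusted p = 0.0184, limma). The call in vcs against WT was lost without replicate 1 (adjusted p = 0.0572), without replicate 2 (0.130), with edgeR's quasi-likelihood test (0.0617), with DESeq2 (0.0563) and with levels centred on the nuclear median (0.109). Reads of the gene on the opposite strand, AT1G32880, could be confused with those of ANAC013 if counting ignored strand, but reached at most 0.0545 RPM and were above 0 in 5 of 128 libraries.

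**Figure D1:**
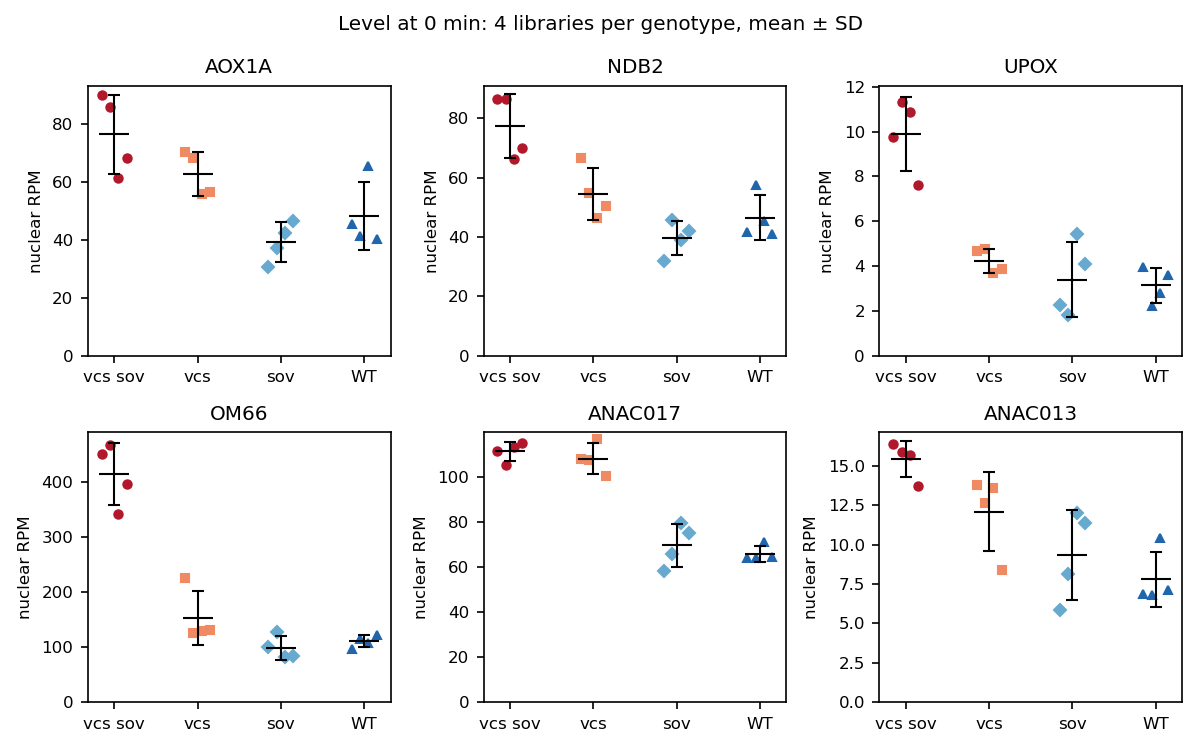
Nuclear RPM at 0 min of each of the 6 transcripts in vcs sov, vcs, sov and WT, with 1 point per library and the mean ± SD of 4. OM66 at 343 to 467 nuclear RPM in vcs sov stands above every other genotype, whereas ANAC017 separates both genotypes with vcs-7 from both without it.

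Over all genes tested, 41.6% had a higher level called in vcs sov and 27.6% a lower one, set against sov, beside 6 and 0 of the 6 genes here. For vcs against WT the shares were 35.4% higher and 13.2% lower, beside 2 and 0. For vcs sov against vcs they were 26.1% higher and 28.6% lower, beside 3 and 0. For sov against WT they were 0.0149% higher and 0.0298% lower, beside 0 and 0, with 9 genes called by limma, 8 by edgeR, 10 by DESeq2 and 695 at an unadjusted p under 0.05. The effect of vcs-7 without the transgene differed from that with it, as an interaction, for 18.7% of genes upward and 20.7% downward. Of the 6, the interaction was positive and passed for OM66 (1.65 ± 0.25, adjusted p = 6.64e-05, limma), UPOX (1.11 ± 0.34, adjusted p = 0.0154) and NDB2 (0.72 ± 0.19, adjusted p = 0.00637). That of AOX1A was 0.56 ± 0.23 (adjusted p = 0.0617, limma), and it passed with edgeR (0.0391), with DESeq2 (0.0257), with levels centred on the nuclear median (0.0406) and with RPM as deposited (0.0235). The UPOX interaction was lost without replicate 1 (adjusted p = 0.0846, limma).

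With RPM as deposited, the median log2 difference of all genes was 0.49 between vcs and WT and 0.63 between vcs sov and sov, against 0.17 and 0.15 on nuclear RPM. The split of calls between vcs and WT was then 13071 higher and 935 lower, against 7112 and 2655 on nuclear RPM and 3895 and 5508 with levels centred on the nuclear median. Between vcs sov and sov it was 12971 and 2504 with RPM as deposited, against 8363 and 5541, and 6508 and 7421 when centred. Between vcs sov and vcs it was 7985 and 3520, against 5245 and 5741. Of the 6 genes, 6 were called higher between vcs and WT with RPM as deposited, against 2 on nuclear RPM and 1 when centred, and between vcs sov and vcs 6 with RPM as deposited against 3. The differences called above for the 6 genes at 0 min kept their direction on each of these scales.

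Per length of transcript, the authors' deposited table ranked the genes alike in vcs sov and WT. In vcs sov it listed 108.6 RPKM for OM66, 31.2 for AOX1A, 30.6 for ANAC017, 20.5 for NDB2, 10.9 for UPOX and 4.83 for ANAC013. In WT the authors' deposited table listed 19.9 RPKM for OM66, 13.3 for AOX1A, 12.4 for ANAC017, 8.25 for NDB2, 2.45 for UPOX and 1.68 for ANAC013. These are the authors' values at 0 min and carry no spread, so the order of the close neighbours AOX1A and ANAC017 cannot be read from them.

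After cordycepin, the share of each transcript among nuclear reads took its own course. Because most mRNAs decay while the library size is fixed, a share that is higher later does not tell slower decay from continued synthesis, and these were not told apart. Changes over time within a genotype are given as values with no test.

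AOX1A was higher at late times in every genotype. It averaged 76.5, 86.4, 117 and 167 nuclear RPM at 0, 60, 240 and 480 min in vcs sov, and 62.7, 80.8, 112 and 131 in vcs. In sov the means were 39.2, 56.4, 112 and 122, and in WT 48.2, 61.3, 127 and 136 nuclear RPM. At 0 min all vcs sov libraries had lain above all sov libraries, and at 240 min these overlapped, while all vcs and all sov libraries lay below all WT libraries. At 240 min vcs sov held 108, 115, 117 and 127 nuclear RPM, vcs 107, 112, 114 and 114, sov 105, 107, 115 and 121, and WT 124, 127, 127 and 130.1. The share of AOX1A rose more than that of most transcripts. Its median slope before scaling, 0.365 log2 units per h, would have placed it at rank 12 of 7920 candidates for reference genes. It was kept out of these.

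OM66 went through a low point in sov and WT. In WT it averaged 111, 88.1, 66.4, 47.6 and 45.2 nuclear RPM at 0, 7.5, 15, 30 and 60 min, then 82, 116 and 109.8 at 120, 240 and 480 min. In sov the means ran 99.1, 82.2, 68.9, 45.0, 46.6, 80.6, 116 and 117 nuclear RPM through the 8 times. The low point at 30 to 60 min was absent with vcs-7: vcs averaged 153, 208, 203, 175, 140.3, 129, 114 and 102 nuclear RPM, and vcs sov 414, 471, 458, 399, 372, 351, 368 and 354.

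Where VCS was intact, ANAC013 and UPOX, both scarce, were lowest near 60 min. Their means were higher at 240 min than at 60 min in every genotype, with the larger rises in sov and WT. ANAC013 averaged 10.5 ± 1.94 nuclear RPM at 60 min and 17.7 ± 4.14 at 240 min in vcs sov, 8.98 ± 0.773 and 14.2 ± 0.616 in vcs, 5.52 ± 0.832 and 20.3 ± 1.11 in sov, and 5.88 ± 1.01 and 20.8 ± 1.51 in WT (SD, n = 4 each). UPOX averaged 9.28 ± 1.9 and 12.1 ± 1.11 in vcs sov at these times, 4.36 ± 0.447 and 7.13 ± 1.28 in vcs, 3.2 ± 0.42 and 10.9 ± 3.3 in sov, and 2.41 ± 0.623 and 10.4 ± 0.722 in WT. The order of the genotypes thus turned round for ANAC013, with vcs sov and vcs above sov and WT at 60 min and below them in the means at 240 min.

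NDB2 stayed within a narrower band, with means of 61.2 to 77.5 nuclear RPM over the 8 times in vcs sov, 44.1 to 57.8 in vcs, 37.5 to 49.9 in sov and 42.1 to 64.9 in WT. ANAC017 had a lower mean at 480 min than at 0 min in all 4 genotypes. Its means at 0 and 480 min were 111 and 87.8 nuclear RPM in vcs sov, 108 and 45.5 in vcs, 69.7 and 35.9 in sov, and 66.0 and 34.5 in WT. At 480 min, its vcs sov libraries held 75, 86.8, 91.1 and 98.4 nuclear RPM and every other library 50.6 or less.

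**Figure D2:**
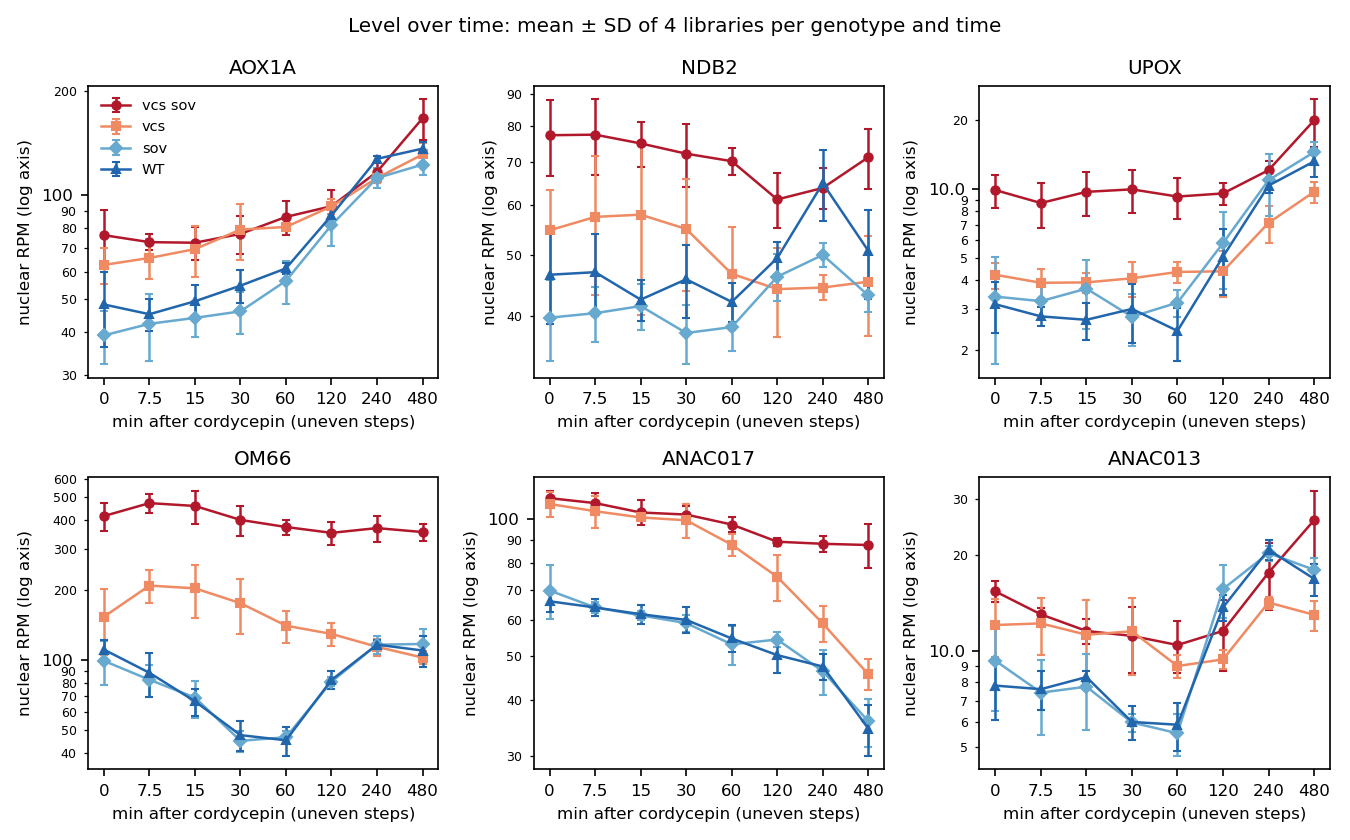
Mean nuclear RPM (log axis) of the 6 transcripts against time in cordycepin (min, in uneven steps), with 1 line per genotype and bars of 1 SD over 4 libraries. OM66 dips to 45.2 nuclear RPM at 60 min in WT and not in vcs sov or vcs, and the AOX1A means lie between 112 and 127 nuclear RPM at 240 min.

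To compare changes over time between genotypes, each genotype and replicate was taken as 1 course of libraries. Courses were scaled to 50 reference genes chosen for the highest slopes without the 6 genes. Decay and synthesis are not told apart in these changes. A value of 0 then means the same change in share as the mean of those references. Single references did not have the same slope in every genotype, and went either way. Before scaling, AT3G12580 had 0.593 log2 units per h in WT and -0.0568 in vcs sov, and AT2G01010 0.326 and 1.02. The numbers below are differences between genotypes in the log2 change or slope of a course, 4 courses each, tested with limma over all genes.

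Over the first 30 min, OM66 was the one of the 6 genes that passed the test. Its change from 0 to 30 min was -0.43, -0.40, -0.09 and -0.01 log2 units in the vcs sov courses and -0.21, -0.18, -0.01 and 0.11 in vcs, against -1.83, -1.45, -1.28 and -0.96 in sov and -1.90, -1.5, -1.38 and -1.23 in WT. No course with vcs-7 overlapped a course without it. The difference was 1.43 ± 0.19 between vcs and WT (adjusted p = 0.000638, limma) and 1.15 ± 0.19 between vcs sov and sov (adjusted p = 0.00205, limma). Without replicate 2, the vcs sov against sov difference was 0.92 and did not pass (adjusted p = 0.0672, limma). Of 18188 genes tested, 1.69% had a more positive change in vcs than in WT and 0.126% a more negative one, and 3.62% and 0.264% in vcs sov against sov, beside 1 and 0 of the 6 genes in each comparison.

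Slopes over 0 to 120 min were more negative with vcs-7 for several of the 5 genes tested. ANAC013 differed by -0.48 ± 0.14 log2 units per h between vcs and WT (adjusted p = 0.0191, limma) and by -0.48 ± 0.14 between vcs sov and sov (adjusted p = 0.00890). NDB2 differed by -0.20 ± 0.06 and -0.19 ± 0.06 in these comparisons (adjusted p = 0.0144 and 0.00709, limma). AOX1A had slopes of -0.24, -0.17, -0.04 and -0.03 in vcs sov and -0.01, 0.12, 0.22 and 0.30 in sov, which did not overlap, a difference of -0.28 ± 0.07 (adjusted p = 0.00326, limma). In vcs against WT, AOX1A differed by -0.15 ± 0.07 and did not pass (adjusted p = 0.135, limma). Of 15289 genes, 20.7% had a more positive slope in vcs than in WT and 4.63% a more negative one, beside 0 and 2 of the 5. In vcs sov against sov these were 50.2% and 2.22% of all genes, beside 0 and 3. The calls in vcs against WT rested on all replicates: that of ANAC013 was lost without replicate 1 or 2 (adjusted p = 0.102 and 0.121, limma), and that of NDB2 without replicate 1, 3 or 4 (0.0711, 0.0625 and 0.0734). In vcs sov against sov, both were lost without replicate 1 (ANAC013 0.0647, NDB2 0.102). None of these calls held over 0 to 60 min alone. There the NDB2 difference was -0.06 in vcs against WT and -0.01 in vcs sov against sov (adjusted p = 0.827 and 0.974, limma), and that of AOX1A in vcs sov against sov was -0.22 (0.277). The ANAC013 difference had the other sign, 0.12 in vcs against WT and 0.16 in vcs sov against sov (0.765 and 0.635). OM66, not called over 0 to 120 min, was then more positive by 0.99 and 0.86 (0.000137 and 0.000369, limma).

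From 60 to 240 min, 5 of the 6 transcripts had a lower change relative to the references with vcs-7 than without. This interval was chosen after the courses of the 6 genes had been seen, and its tests describe the size of a pattern already visible. OM66 changed by -0.49, -0.48, -0.36 and -0.33 log2 units in vcs sov and -0.76, -0.66, -0.37 and -0.28 in vcs, against 0.76, 0.86, 0.86 and 0.99 in sov and 0.78, 0.86, 0.97 and 1.16 in WT. Every course with vcs-7 was negative and every course without it positive. The differences were -1.46 ± 0.12 between vcs and WT (adjusted p = 1.73e-06, limma) and -1.28 ± 0.12 between vcs sov and sov (adjusted p = 3.52e-06, limma).

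UPOX changed by -0.21, -0.10, 0.12 and 0.22 in vcs sov and 0.23, 0.29, 0.50 and 0.63 in vcs, against 0.57, 1.09, 1.29 and 1.54 in sov and 1.13, 1.39, 1.57 and 1.73 in WT. Its differences were -1.04 ± 0.20 for vcs against WT and -1.12 ± 0.20 for vcs sov against sov (adjusted p = 0.00140 and 0.000478, limma). ANAC013 differed by -0.91 ± 0.18 and -1.01 ± 0.18 (adjusted p = 0.00147 and 0.000379, limma), and neither pair of groups overlapped. AOX1A and NDB2 followed with smaller differences. Those of AOX1A were -0.39 ± 0.11 and -0.51 ± 0.11 (adjusted p = 0.0120 and 0.00142, limma), and those of NDB2 -0.48 ± 0.13 and -0.48 ± 0.13 (adjusted p = 0.0120 and 0.00864). ANAC017 differed by -0.19 ± 0.11 and 0.10 ± 0.11 and did not pass. In vcs against WT, the AOX1A call was lost without replicate 1, 3 or 4 (adjusted p = 0.0817, 0.0505 and 0.0593, limma) and the NDB2 call without replicate 1, 2 or 4 (0.0849, 0.0771 and 0.0570). In vcs sov against sov, the NDB2 call was lost without replicate 4 (0.0679). Over 18188 genes, 21.7% had a more positive late change in vcs than in WT and 6.85% a more negative one, and 33% and 4.01% in vcs sov against sov, beside 0 and 5 of the 6 in each.

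**Figure D3:**
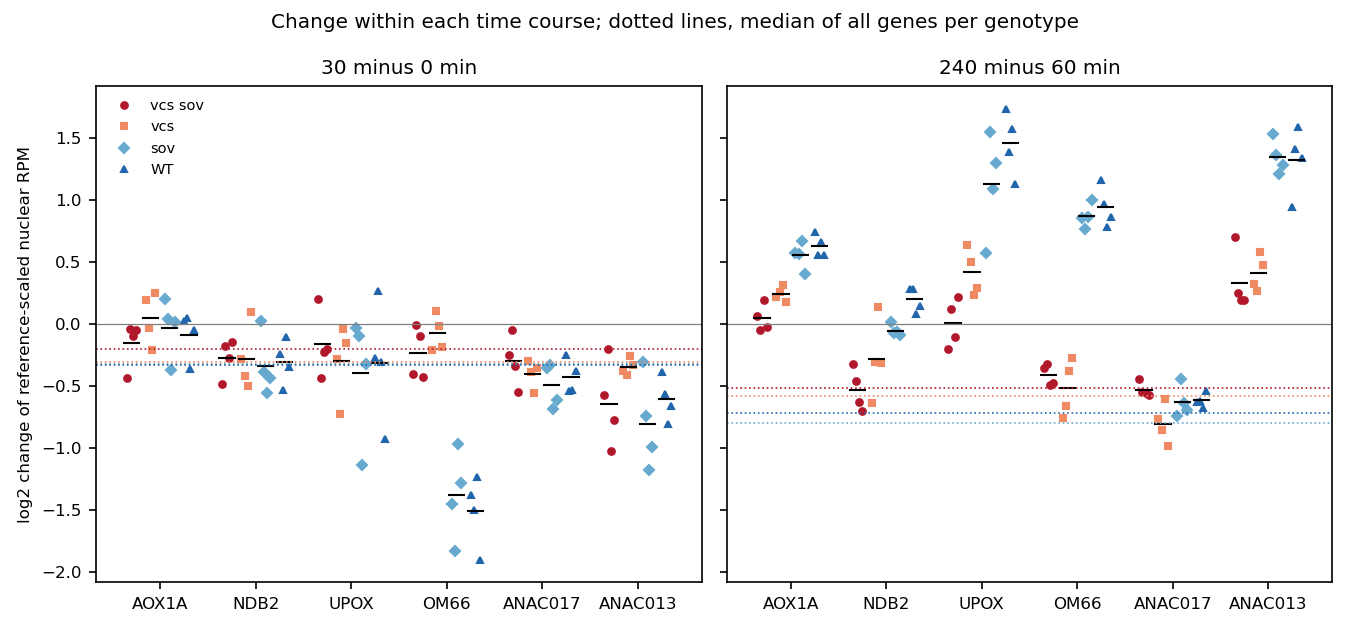
Log2 change per course, scaled to the 50 reference genes, from 0 to 30 min and from 60 to 240 min for the 6 transcripts, with 1 point per course in vcs sov, vcs, sov and WT, a bar at the mean of 4 and dotted lines at the median of all genes in each genotype. OM66 courses with vcs-7 lie between -0.43 and 0.11 early and below 0 late, and courses without it lie at -0.96 or lower early and 0.76 or higher late.

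In WT, ranked by late change among the 18188 genes, UPOX was at 17, ANAC013 at 20, OM66 at 49, AOX1A at 99, NDB2 at 330 and ANAC017 at 7646, where the median gene stood at -0.72 log2 units. In the same order of genes, the ranks in sov were 26, 15, 49, 112, 806 and 6734. With vcs-7, they were 68, 69, 8085, 253, 4591 and 12160 in vcs and 487, 115, 6832, 381, 9338 and 9348 in vcs sov. These ranks come from the same values as the courses above. The authors' deposited table, scaled by the authors in their own way, gave OM66 in vcs as 0.777 of its 0 min level at 60 min and 0.471 at 240 min, and in WT as 0.331 and 0.640.

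**Figure D4:**
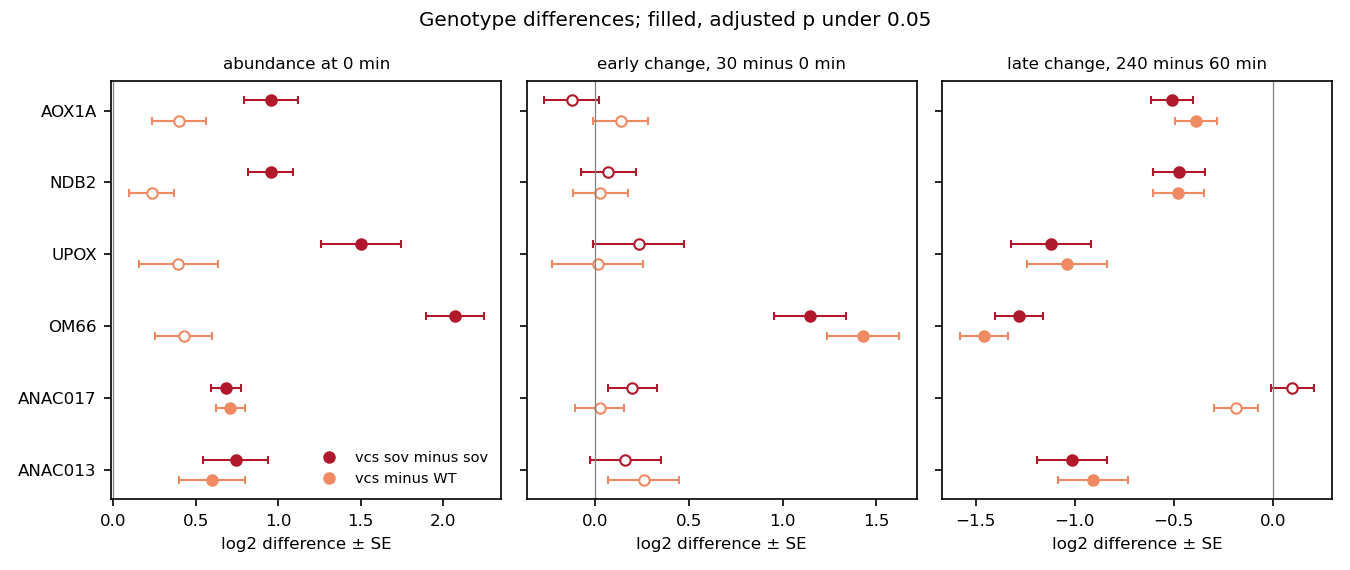
Log2 differences with 1 SE for the 6 transcripts in vcs sov minus sov and vcs minus WT, for the level at 0 min and the early and late changes, with filled points where the adjusted p was under 0.05. OM66 is positive for level (2.07) and early change (1.15) and negative for late change (-1.28) in vcs sov minus sov.

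Other genes known to answer mitochondrial dysfunction were taken as a list of 9, drawn from general knowledge, of which 8 were tested. At 0 min, by this test, vcs sov exceeded sov for 6 and fell below it for 0, with a median of 0.95 log2 units against 0.15 for all genes, and vcs exceeded WT for 3 and fell below it for 0 (0.47 against 0.17). Over all genes the shares were 41.6% higher and 27.6% lower in the first comparison and 35.4% and 13.2% in the second. UGT74E2, an auxin glucosyltransferase, was higher by 2.92 ± 0.26 in vcs sov than in sov (adjusted p = 4.11e-08, limma), and CRF6, a cytokinin response factor, by 1.84 ± 0.16 (1.15e-08). In vcs against WT, CRF6 was higher by 1.88 ± 0.16 (adjusted p = 5.81e-08, limma) and UGT74E2 by 1.16 ± 0.26 (0.00175). With edgeR or with levels centred on the nuclear median, 4 of the 8 were higher in vcs sov than in sov. The count of higher calls over all genes, given earlier, also fell when centred.

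In the late interval, 6 of these 8 were lower and 0 higher for vcs against WT (median -1.10 against 0.15 for all genes), and for vcs sov against sov 5 were lower and 0 higher (-1.01 against 0.24). Over all genes 6.85% were lower and 21.7% higher for vcs against WT, and 4.01% and 33% for vcs sov against sov. UGT74E2 differed by -2.58 ± 0.23 between vcs and WT and by -3.26 ± 0.23 between vcs sov and sov (adjusted p = 3.54e-06 and 1.89e-07, limma). CRF6 differed by -2.30 ± 0.20 and -2.93 ± 0.20 (3.20e-06 and 1.84e-07). In level, CRF6 averaged 23.9 and 21 nuclear RPM at 60 and 240 min in vcs sov and 19.3 and 22.8 in vcs, against 4.1 and 32.4 in sov and 4.74 and 35.5 in WT. SOT12, a sulfotransferase, differed by -1.42 ± 0.16 between vcs sov and sov (adjusted p = 1.14e-05, limma). A motif match was found for 7 of the 9 in the 1000-base window, beside 4.41% of all genes scanned. It was found for 3 of the 10 further alternative oxidases and NAD(P)H dehydrogenases described next. The list of 9 too is known in part through the motif.

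The remaining alternative oxidases and type II NAD(P)H dehydrogenases differed in both directions. Of 10 on the list 7 were tested at 0 min. In vcs sov against sov, 4 were higher and 2 lower, where all genes gave 41.6% and 27.6%, and in vcs against WT 3 were higher and 3 lower, where all genes gave 35.4% and 13.2%. NDA1, an internal dehydrogenase, averaged 25.9 ± 5.49 nuclear RPM in vcs sov and 14 ± 1.78 in vcs, against 69.7 ± 2.95 in sov and 70.4 ± 10.2 in WT (SD, n = 4 each). Its log2 differences were -1.43 ± 0.14 for vcs sov against sov and -2.29 ± 0.14 for vcs against WT (adjusted p = 3.08e-08 and 5.32e-10, limma). NDA2, the other internal dehydrogenase, was higher by 1.39 ± 0.16 and 0.91 ± 0.16 (4.15e-07 and 0.000155). NDC1, found in mitochondria and plastids, was lower by -0.58 ± 0.08 and -0.41 ± 0.08 (6.72e-06 and 0.000581), calls that were lost with RPM as deposited. NDB4, an external dehydrogenase too scarce for the rule on named genes and chosen after its values were seen, averaged 5.22 ± 0.477 nuclear RPM in vcs sov and 0.168 ± 0.139 in sov (SD, n = 4 each), with an adjusted p of 8.05e-11 (limma). AOX1D, the oxidase gene next most known for stress, was near the limit of detection, with 0.463 to 1.19 nuclear RPM in vcs sov and 0 to 0.0544 in sov.

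Of 12 known regulators of the retrograde response 11 were tested at 0 min, and by this test vcs sov exceeded sov for 8 and fell below it for 2, while vcs exceeded WT for 6 and fell below it for 0. The shares over all genes were 41.6% and 27.6% for vcs sov against sov, and 35.4% and 13.2% for vcs against WT. The count in vcs against WT was 9 with RPM as deposited, 4 with edgeR and 2 with levels centred on the nuclear median. The shares over all genes are those on nuclear RPM. The counts over all genes given earlier also rose with RPM as deposited and fell when centred. ANAC016, the nearest relative of ANAC017 and listed as NAC016 by RefSeq, was higher by 1.79 ± 0.18 in vcs sov than in sov (adjusted p = 4.47e-08, limma) and by 0.64 ± 0.18 in vcs than in WT (0.00589). KIN10, a catalytic subunit of the energy sensor SnRK1, was higher by 0.98 ± 0.09 and 0.66 ± 0.09 (2.63e-08 and 1.51e-05). CDKE;1, a kinase of the Mediator complex needed for AOX1A induction, was higher by 0.69 ± 0.10 in vcs than in WT (2.40e-05). MYB29, a factor of glucosinolate synthesis, was lower by -1.71 ± 0.40 in vcs sov than in sov (0.00124).

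The 5 genes whose group means over the 32 groups were most like those of AOX1A, of 14877 genes with a mean of at least 5 nuclear RPM, were MAPR3 (Pearson r of log2 means 0.962), APRL5 (0.962), PMP (0.961), ADK1 (0.960) and scpl29 (0.958). Among the other 5 genes described here, UPOX reached 0.854 and ANAC013 0.83, at ranks 238 and 318, while NDB2 had 0.425, OM66 0.407 and ANAC017 -0.18. The 32 groups share genotypes, times and the rise in share of all persistent transcripts, so these values describe likeness of course only.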

How the data were processed

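RNA-seq of ribosome-depleted total RNA was analysed for 128 libraries. Per the submitters' processing notes, the tools were HTSeq 0.6.1, TopHat2 2.0.12, Bowtie2 2.2.3, FastQC, R 3.1.0 and SAMtools and the build was TAIR10; the strand setting of the counting is not given in the sources used here. The authors deposited RPM per gene and library, RPKM per genotype at 0 min, and mean ratios to 0 min; the last 2 were used only where the authors' deposited table is named. A further deposited file, of library sizes, was left unused.

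RPM values were turned back into whole reads (100% whole, tolerance 0.01 reads) and expressed as nuclear RPM, with 28496 nuclear, 133 plastid and 146 mitochondrial genes. Log2 values were computed here from the deposited RPM with a pseudocount of 0.5, and no p-value was taken from the authors. limma 3.58.1 (trend, robust; R 4.3.3) was fitted over all genes that had a mean at 0 min of at least 1 nuclear RPM in 1 or more genotypes (levels) or in every genotype (changes), or 2 RPM in every genotype (slopes). The change from 60 to 240 min was added after the values were seen. The 50 reference genes had at least 10 RPM at 0 min and the highest slopes without the 6 genes; they include AT4G37830 of the cytochrome list and the shoot marker RBCS1A. edgeR 4.0.16, DESeq2 1.42.0, other scalings, filters and pseudocounts, a replicate block and leaving out each replicate were alternatives. The scripts were tested on simulated data. Replicates are numbered biological replicates per the labels; p-values measure the spread between them. RPM depth limits cover counting error only.

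The members and lists were chosen with earlier results of these data known. The text names the 6 genes, VCS and SOV, up to 4 genes with the largest called change per list and comparison among those with at least 5 RPM, as deposited, in 1 genotype at 0 min, AOX1D as a detection limit and NDB4 (both chosen after their values were seen), and the 5 genes most like AOX1A. Motif positions and sequences come from RefSeq TAIR10.1, and figures were drawn with matplotlib 3.10.9 in Python 3.11.15.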

Additional observations from a re-analysis of the deposited data

Results flagged for a closer look

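In 16 of the 192 groups of 4 libraries, 1 library lay far from the other 3 in nuclear RPM, where chance alone picks out about 1 group in 20. For OM66 these were replicate 2 of vcs sov at 7.5 min (538) and at 120 min (408), and replicate 1 of vcs at 0 min (226) and at 15 min (281). For NDB2 they were replicate 1 of vcs sov at 60 min (65.0), replicate 3 of vcs sov at 480 min (59.8), replicate 2 of sov at 120 min (52.0), and replicate 2 of WT at 7.5 min (57.3) and at 120 min (53.8). For ANAC013 they were replicate 3 of vcs at 240 min (15.1), and in WT replicate 3 at 0 min (10.4) and replicate 4 at 15 min (7.78). For ANAC017 they were replicate 1 of sov at 15 min (59.4) and replicate 3 of WT at 0 min (71.2). For UPOX they were replicate 1 of sov at 240 min (6.0) and replicate 4 of WT at 60 min (3.34).

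Differences between genotypes in the effect of vcs-7 at 0 min, or in a change over time, passed the test in 20 cases, given as log2 values. The interactions at 0 min were 1.65 for OM66, 1.11 for UPOX and 0.72 for NDB2. Over all genes, 18.7% of interactions were called upward and 20.7% downward. The slopes differed in vcs sov against sov by -0.48 for ANAC013, -0.28 for AOX1A and -0.19 for NDB2, and in vcs against WT by -0.48 for ANAC013 and -0.20 for NDB2. Of all slopes tested, 50.2% were called more positive and 2.22% more negative in vcs sov against sov. In vcs against WT these shares were 20.7% and 4.63%. The early change of OM66 differed by 1.15 in vcs sov against sov and by 1.43 in vcs against WT. Among all early changes, 3.62% were called more positive and 0.264% more negative in vcs sov against sov, and 1.69% and 0.126% in vcs against WT. The late changes differed in vcs sov against sov by -1.28 for OM66, -1.12 for UPOX, -1.01 for ANAC013, -0.51 for AOX1A and -0.48 for NDB2. In vcs against WT they differed by -1.46 for OM66, -1.04 for UPOX, -0.91 for ANAC013, -0.48 for NDB2 and -0.39 for AOX1A.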

How the results depend on the processing

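The 6 genes' calls of a higher level in vcs sov than in sov held under every alternative run. In vcs against WT at 0 min, 2 of the 6 were called, but 6 with RPM as deposited, 1 with levels centred on the nuclear median, 1 with edgeR and 1 with DESeq2. In vcs sov against vcs, 3 were called, and 6 with RPM as deposited. On nuclear RPM, 35.4% of all genes were called higher and 13.2% lower in vcs against WT, and 26.1% and 28.6% in vcs sov against vcs. The counts of higher calls over all genes, given earlier, also rose in both comparisons with RPM as deposited. In vcs against WT they also fell when centred. Slopes over 0 to 60 min in place of 120 min gave 1922 called genes in vcs against WT, 2943 in vcs sov against sov and 29 in vcs sov against vcs, and 1 of the 6 genes in vcs against WT and 1 in vcs sov against sov. On that shorter interval the slope difference had the other sign for ANAC013 (0.12 in vcs against WT, 0.16 in vcs sov against sov) and for OM66 (0.99 and 0.86), whose low point at 30 to 60 min in sov and WT lies at its end. With a filter at 5 RPM, 1 of the 4 genes still tested was called for slope in vcs against WT. ANAC013, with a lowest genotype mean of 3.83 RPM at 0 min, was left out by that filter. With 200 reference genes or no reference scaling, vcs sov against vcs gave 2711 or 2677 genes for slope (1515 with 50), 3 or 3 for early change (1) and 2655 or 2856 for late change (997), with 1 or 1 of the 6 genes called late (ANAC017). A pseudocount of 0.1 left 0 for early change. The late change of ANAC017 in vcs against WT passed with 200 reference genes (-0.32, adjusted p = 0.0224, limma) and with no reference scaling (-0.37, 0.00627).

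Leaving out 1 replicate in turn gave 5 to 7 called genes for sov against WT at 0 min (9 with all), 2291 to 3201 for slope in vcs against WT (3876), and 274 to 1303 in vcs sov against vcs (1515). For early change it gave 0 to 1 in sov against WT (0), 57 to 248 in vcs against WT (331), 144 to 427 in vcs sov against sov (707) and 0 to 0 in vcs sov against vcs (1). For late change it gave 2675 to 3930 in vcs against WT (5200) and 215 to 391 in vcs sov against vcs (997). It also gave 7516 to 9738 at 0 min in vcs against WT (9767) and 5358 to 7886 for slope in vcs sov against sov (8019). Of the 6 genes it gave 1 to 3 at 0 min in vcs against WT (2), 0 to 1 for slope in vcs against WT (2), 1 to 3 for slope in vcs sov against sov (3), 0 to 1 for early change in vcs sov against sov (1) and 3 to 4 for late change in vcs against WT (5). The cause was not tested. Replicate 3 left out also removes the libraries whose tubes were corrected.

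The replicate numbers were not taken to pair the samples: of 24 same-numbered pairs at 0 min, the correlation of deviations was -0.103 to 0.446 and over 0.1 in 18, which held all 4 pairs of vcs sov with sov but 3 of 4 of vcs with WT. For 13 of 16 libraries, the mean correlation with libraries of other genotypes was highest for their own number. A replicate block gave 14397 called genes in vcs sov against sov at 0 min (13904 without) and 10435 in vcs against WT (9767), where OM66 was then called (adjusted p = 0.0374, limma). It changed no other call of the 6 genes in these tests, and gave 7 early stress genes with a more positive early change in vcs sov than in sov (4 without). Depth limits UPOX and ANAC013 most, the scarcest of the 6.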

Other observations

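The remaining lists were not part of the comparisons above. Of 23 subunits of the cytochrome pathway, by limma vcs sov exceeded sov for 4 and fell below it for 9 at 0 min, and vcs exceeded WT for 0 and fell below it for 8. Over all genes, 41.6% were higher and 27.6% lower in vcs sov against sov, and 35.4% and 13.2% in vcs against WT. The direction turned with RPM as deposited: vcs sov exceeded sov for 17 and fell below it for 0, and vcs exceeded WT for 6 and fell below it for 0. With edgeR, DESeq2 and levels centred on the nuclear median, each gave 0 higher and 11 lower in vcs sov against sov. In vcs against WT these gave 0 higher each, and 15, 15 and 18 lower. The split of calls over all genes, given earlier, also moved toward higher with RPM as deposited and toward lower when centred. EMB1467, a subunit of complex I, was lower by -0.42 ± 0.08 in vcs than in WT (adjusted p = 0.000484, limma), and CYTC-2, a cytochrome c, by -0.49 ± 0.16 (0.0156).

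Of 13 early stress genes, 4 had a more positive change over the first 30 min in vcs sov than in sov and 7 in vcs than in WT, with 0 more negative in either. Over all genes, 3.62% were more positive and 0.264% more negative in vcs sov against sov, and 1.69% and 0.126% in vcs against WT. TCH2, a calmodulin-like protein of the touch response, differed by 0.94 ± 0.19 in vcs sov against sov (adjusted p = 0.00898, limma), and STZ, a zinc-finger factor, by 1.32 ± 0.26 in vcs against WT (0.0107). In the late interval CYP81D8, a cytochrome P450 often counted with the retrograde genes, differed by -2.0 ± 0.18 in vcs sov against sov (2.60e-06) and by -1.28 ± 0.18 in vcs against WT (0.000157), while TCH3, another calmodulin-like gene, differed by 1.25 ± 0.12 and 0.98 ± 0.12 (4.71e-06 and 7.19e-05).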
